A study of Homo sapiens with 20 samples.

Results

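The integrated stress response and the unfolded protein response were followed through 10 genes chosen by name: the transcription factors ATF4, ATF3, DDIT3 and XBP1, the ATF4-side genes CHAC1, TRIB3 and ASNS, the phosphatase subunit PPP1R15A, and the endoplasmic reticulum (ER) genes HSPA5 and HERPUD1. All 10 were measured, among 18417 genes with a named transcript cluster (the probes of 1 transcription unit). ATF4 had 2 named clusters and the brighter one stood for it, and each of the other genes had 1. Total RNA came from B5/589 cells, an immortalized line of human mammary epithelium, and every group carried an inducible p53 transgene. Uninduced cells (0 ng of doxycycline) were collected at 24 h, and induced cells (3 ng or 5 ng) at 12 h and at 24 h, with 4 arrays in each of the 5 groups. The medium, with or without doxycycline, was replaced every 24 h, and the doses carry no volume in the labels. Uninduced cells at 12 h were not analysed here, so in a comparison of a 12 h group with 0 ng the dose and the time cannot be told apart. A difference between 12 h and 24 h at 1 dose cannot tell the length of induction from time in culture or the medium's age. The labels do not say which promoter drives the transgene, whether the line is 1 clone, or whether the 4 arrays of a group are separate cultures, so the p-values cover the spread among these arrays alone, which can be technical.

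In the integrated stress response, kinases that sense amino acid shortage, misfolded protein, viral RNA or heme shortage phosphorylate the translation factor eIF2, which lowers protein synthesis as a whole while the ATF4 mRNA is translated more. ATF4 protein then drives genes of amino acid synthesis and transport, and, with its targets DDIT3 and ATF3, genes that act in prolonged stress. The unfolded protein response adds ATF6 and spliced XBP1, which drive ER chaperones and ER-associated degradation. ATF4 and XBP1 are controlled largely after transcription, by translation and by splicing, and these arrays measured total RNA of each gene, neither the protein nor the spliced form.

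The promoters are shown because genes that moved in different directions share motifs in them. The 250 bases upstream of a transcription start, from RefSeq on GRCh38.p14, were searched on both strands for 5 motifs, and all 10 genes had such a window. Where a gene has several starts, the window with most matches was taken, whereas the shares of windows below count every window. ATF3, ASNS and XBP1 had 2 starts each, and the other window of each held none of the motifs. The motif TGATGNAAN, the CARE (C/EBP-ATF response element), was in 3.13% of 35116 windows and in those of ASNS, CHAC1, HERPUD1 and ATF3. The ER stress element (ERSE), CCAAT and CCACG with 9 bases of any kind between them, was in 0.074% of windows and in those of HSPA5 and XBP1, and the related ERSE-II, ATTGG and CCACG with any 1 base between them, which shares its last 5 letters with ERSE, was in 0.0513% and in that of HERPUD1. The motif TGACGTCA (CRE) was in 1.65% of windows and in that of PPP1R15A, and TGACGTGG (UPRE), which shares the first 6 letters of CRE, was in 0.612% and in none of the 10. The windows of ATF4, DDIT3 and TRIB3 held none of the 5 motifs, which says only that these letters are not in these windows. The sequences below run 5′ to 3′ on the gene's strand with each match in capitals: ASNS on the minus strand at chr7:97872409-97872658, CHAC1 on the plus strand at chr15:40953221-40953470, ATF3 on the plus strand at chr1:212565157-212565406, HERPUD1 on the plus strand at chr16:56931892-56932141, HSPA5 on the minus strand at chr9:125241344-125241593 and XBP1 on the minus strand at chr22:28800570-28800819.
ASNS: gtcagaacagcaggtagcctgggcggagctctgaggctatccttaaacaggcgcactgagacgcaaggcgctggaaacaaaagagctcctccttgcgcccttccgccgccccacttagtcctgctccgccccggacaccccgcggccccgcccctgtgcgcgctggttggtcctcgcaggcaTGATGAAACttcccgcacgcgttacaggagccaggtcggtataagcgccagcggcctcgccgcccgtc
CHAC1: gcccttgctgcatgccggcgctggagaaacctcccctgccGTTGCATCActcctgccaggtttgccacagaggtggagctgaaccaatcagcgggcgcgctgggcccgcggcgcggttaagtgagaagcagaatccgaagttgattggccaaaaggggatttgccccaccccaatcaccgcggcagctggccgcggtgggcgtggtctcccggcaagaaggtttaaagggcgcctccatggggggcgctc
ATF3: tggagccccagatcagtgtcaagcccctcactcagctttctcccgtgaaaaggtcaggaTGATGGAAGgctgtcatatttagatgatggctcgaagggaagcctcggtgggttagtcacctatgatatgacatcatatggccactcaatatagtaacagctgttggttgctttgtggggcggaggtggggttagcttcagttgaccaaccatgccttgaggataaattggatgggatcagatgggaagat
HERPUD1: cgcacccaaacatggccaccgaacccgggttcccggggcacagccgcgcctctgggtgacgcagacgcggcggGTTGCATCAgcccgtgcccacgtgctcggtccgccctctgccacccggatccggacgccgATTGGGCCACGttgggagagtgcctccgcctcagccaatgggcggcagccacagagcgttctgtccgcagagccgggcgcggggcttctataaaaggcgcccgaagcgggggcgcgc
HSPA5: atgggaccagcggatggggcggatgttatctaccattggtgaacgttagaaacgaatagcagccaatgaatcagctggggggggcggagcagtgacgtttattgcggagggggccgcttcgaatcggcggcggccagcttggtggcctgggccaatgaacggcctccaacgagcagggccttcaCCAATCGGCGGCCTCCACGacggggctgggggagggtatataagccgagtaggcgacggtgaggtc
XBP1: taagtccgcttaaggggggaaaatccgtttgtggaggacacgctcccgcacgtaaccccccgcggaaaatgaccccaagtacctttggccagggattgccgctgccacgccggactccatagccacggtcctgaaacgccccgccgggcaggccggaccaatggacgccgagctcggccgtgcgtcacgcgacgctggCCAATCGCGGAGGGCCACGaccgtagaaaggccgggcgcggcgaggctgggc

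Against these sequences, ASNS fell at 24 h while CHAC1, ATF3 and HERPUD1 rose at the higher dose, and all 4 windows hold a CARE. In CHAC1 and HERPUD1 the match reads GTTGCATCA on the gene's strand, since it lies on the opposite one, at 210 to 202 and at 177 to 169 bases before the start. In ASNS it reads TGATGAAAC at 68 to 60 bases before the start, and in ATF3 TGATGGAAG at 191 to 183. HERPUD1 alone among the 10 held matches to 2 of the motifs. A match is a description of the letters and was not tested as a binding site.

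Signals are on the log2 scale as deposited, where a difference of 1 is a 2-fold change. Except for the cell type markers, levels are compared only within a gene. The arrays differed in brightness, with array medians from 4.54 to 5.54 and group means of those medians from 4.80 (5 ng, 24 h) to 5.15 (3 ng, 12 h). The median difference of all genes from 0 ng at 24 h was -0.23 at 3 ng and -0.24 at 5 ng as deposited, and 0.08 and 0.07 after quantile normalization, so counts of called genes at 24 h, between the doses and between the times are given on both scales. Of 8 mammary epithelial markers 6 were measured, with group means from 9.57 to 12.95, against 1.37 to 4.25 for 3 of 3 endothelial, -0.17 to 6.38 for 4 of 4 fibroblast and -0.70 to 6.49 for 3 of 4 immune markers. The immune marker CD14 ran from 6.49 at 0 ng to 5.06 at 5 ng and 24 h; its part in the results below was not tested. CDKN1A, the cell cycle inhibitor induced by p53, served as the check of induction and rose by 0.72 ± 0.14 (SE) at 3 ng and by 1.44 ± 0.14 at 5 ng at 24 h, and by 1.19 ± 0.06 and 1.76 ± 0.06 after quantile normalization. MDM2, another p53 target, rose by 0.47 ± 0.15 at 5 ng, and its difference of 0.18 ± 0.15 at 3 ng was not called as deposited. After quantile normalization MDM2 rose at both doses, by 0.48 ± 0.05 at 3 ng and 0.62 ± 0.05 at 5 ng, with no overlap with the uninduced arrays.

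At 24 h with the higher dose, ATF3, CHAC1 and HERPUD1 rose and ATF4, TRIB3 and ASNS fell (limma, Benjamini-Hochberg adjusted p under 0.05). The differences, as deposited, were 0.57 to 0.95 in size on the log2 scale. These 3 rises stand beside 4.52% of all genes called higher and the 3 falls beside 23.5% called lower in the comparison of 5 ng with 0 ng. At the lower dose HERPUD1 rose and ATF4, TRIB3 and ASNS fell, beside 1.5% of all genes called higher and 23.0% called lower. At both doses the falls, 3 of the 10, were thus near the share of all genes that fell. After quantile normalization the counts were 6 rises and 3 falls at 5 ng, beside 20.6% and 17.2% of all genes, and 4 rises and 2 falls at 3 ng, beside 15.4% and 12.5%. The median difference of the 10 genes was 0.23 at 5 ng and -0.11 at 3 ng as deposited, and 0.53 and 0.32 after quantile normalization. The comparisons of 3 ng and of 5 ng with 0 ng share their 4 control arrays. Where arrays are said above or below not to overlap, the share of all genes for which this holds is not given. A lack of overlap therefore only describes the arrays of that gene.

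**Figure D1:**
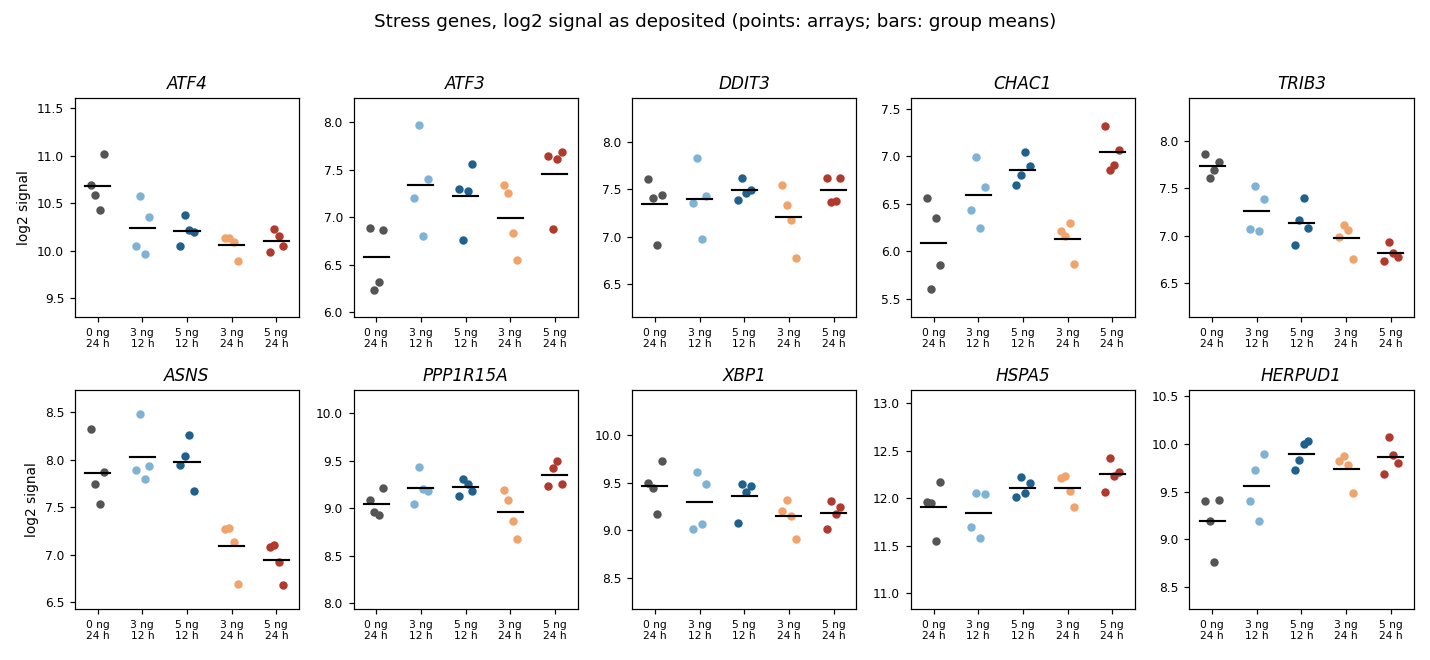
Log2 signal as deposited of the 10 genes (vertical axis, 1 panel per gene, each spanning the same width) in the 5 dose and time groups (horizontal axis); points are the 4 arrays of a group in order of replicate number and bars are group means. ATF4 and TRIB3 lie highest at 0 ng, ASNS is low in both 24 h groups with doxycycline, and CHAC1 at 24 h is high with 5 ng (6.86 to 7.32) and not with 3 ng (5.87 to 6.30).

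ATF4, the central transcription factor of the integrated stress response, had signals of 10.69, 10.59, 10.43 and 11.02 in uninduced cells. The arrays of 3 ng at 24 h read 10.14, 10.14, 10.09 and 9.89, and those of 5 ng at 24 h read 9.99, 10.23, 10.16 and 10.05. Every array of both induced groups at 24 h thus lay below every uninduced array. ATF4 fell by 0.62 ± 0.15 at 3 ng (1.53-fold, adjusted p = 0.00532) and by 0.57 ± 0.15 at 5 ng (1.49-fold, adjusted p = 0.00655). On the normalized scale the falls were 0.21 ± 0.05 and 0.29 ± 0.05 and were called, and the groups again did not overlap. With each array centred on its median the differences were -0.39 and -0.30 and were not called (limma, adjusted p = 0.0814 and 0.153).

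ATF3, a stress-induced factor of the ATF family and a known p53 target, moved opposite to ATF4. Its signals were 6.89, 6.23, 6.32 and 6.87 at 0 ng, and 7.64, 6.88, 7.61 and 7.68 at 5 ng and 24 h. Replicate 2 of 5 ng lay inside the uninduced range and its other arrays lay above it. ATF3 rose by 0.88 ± 0.26 at 5 ng (1.83-fold, adjusted p = 0.0127), and by 1.22 ± 0.19 after quantile normalization, where the groups did not overlap. At 3 ng and 24 h its arrays read 7.34, 7.25, 6.83 and 6.55, a difference of 0.41 ± 0.26 that was not called as deposited (adjusted p = 0.278), and 0.79 ± 0.19 that was called after quantile normalization (adjusted p = 0.00353). Centring on array medians also called it at 3 ng, at 0.64 (adjusted p = 0.0122).

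DDIT3, which encodes CHOP, the factor tied to cell death in prolonged ER stress, had group means from 7.21 to 7.49 as deposited. Uninduced arrays ran from 6.91 to 7.61, those of 3 ng at 24 h from 6.78 to 7.54 and those of 5 ng at 24 h from 7.36 to 7.62, so all 3 groups overlapped. Its differences from 0 ng were -0.14 (95% interval -0.52 to 0.25) at 3 ng and 0.15 (-0.24 to 0.54) at 5 ng, and neither was called. After quantile normalization the 5 ng arrays (7.54 to 7.80) lay above the uninduced arrays (6.87 to 7.32), with a called difference of 0.52 ± 0.12 (adjusted p = 0.00217). At 3 ng the normalized difference was 0.29 ± 0.12 and was not called (adjusted p = 0.0968).

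CHAC1, an enzyme that degrades glutathione and a target of the ATF4, ATF3 and DDIT3 branch, was the one of the 10 that was called between the doses at 24 h. Its signals were 6.56, 5.60, 6.35 and 5.86 at 0 ng and 6.21, 6.16, 6.30 and 5.87 at 3 ng. At 5 ng they were 7.32, 6.86, 6.91 and 7.07, above every array of both other groups. CHAC1 rose by 0.95 ± 0.20 at 5 ng against 0 ng (1.93-fold, adjusted p = 0.000881) and by 1.24 ± 0.16 after quantile normalization. At 3 ng the difference was 0.04 (95% interval -0.37 to 0.45) as deposited and 0.36 (0.02 to 0.69) after quantile normalization, and neither was called.

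TRIB3 is a pseudokinase that ATF4 and DDIT3 induce and that restrains ATF4 in turn. At 24 h TRIB3 was, as deposited, the most firmly lowered of the 10 by adjusted p. Its signals were 7.86, 7.61, 7.69 and 7.78 at 0 ng, 6.99, 7.11, 7.06 and 6.75 at 3 ng, and 6.73, 6.93, 6.82 and 6.78 at 5 ng. As deposited, no induced array at 24 h reached the lowest uninduced one. On the normalized scale the highest 3 ng array and the lowest uninduced array both read 7.26, and the highest 5 ng array read 7.13. TRIB3 fell by 0.76 ± 0.14 at 3 ng (1.69-fold, adjusted p = 0.000548) and by 0.92 ± 0.14 at 5 ng (1.89-fold, adjusted p = 3.91e-05). On the normalized scale the falls were 0.32 ± 0.09 and 0.53 ± 0.09, both called.

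ASNS, the asparagine synthetase that ATF4 induces when amino acids are short, had signals of 8.32, 7.74, 7.53 and 7.87 at 0 ng. They were 7.27, 7.28, 7.13 and 6.69 at 3 ng and 7.08, 7.10, 6.92 and 6.68 at 5 ng, all at 24 h, and as deposited no induced array overlapped the uninduced ones. On the normalized scale the 3 ng arrays (7.03 to 7.41) overlapped the uninduced ones (7.35 to 8.01), and the 5 ng arrays (6.69 to 7.29) did not. ASNS fell by 0.77 ± 0.19 at 3 ng (1.71-fold, adjusted p = 0.00596) and by 0.92 ± 0.19 at 5 ng (1.89-fold, adjusted p = 0.00102). After quantile normalization it fell by 0.53 ± 0.17 at 5 ng (adjusted p = 0.017), and the difference at 3 ng, -0.33 ± 0.17, was not called (adjusted p = 0.155). Centring on array medians likewise left the 3 ng difference uncalled, at -0.55 (adjusted p = 0.0746).

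PPP1R15A, which encodes GADD34, the subunit that recruits a phosphatase to eIF2 and so ends the translation block, was not called as deposited. Its uninduced arrays ran from 8.93 to 9.21 and those of 5 ng at 24 h from 9.23 to 9.50, which do not overlap, with a difference of 0.30 ± 0.13 (adjusted p = 0.106). The 3 ng arrays at 24 h, from 8.68 to 9.19, overlapped the uninduced ones, with a difference of -0.09 ± 0.13. After quantile normalization both differences were positive and called, at 0.37 ± 0.10 for 3 ng and 0.65 ± 0.10 for 5 ng.

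**Figure D2:**
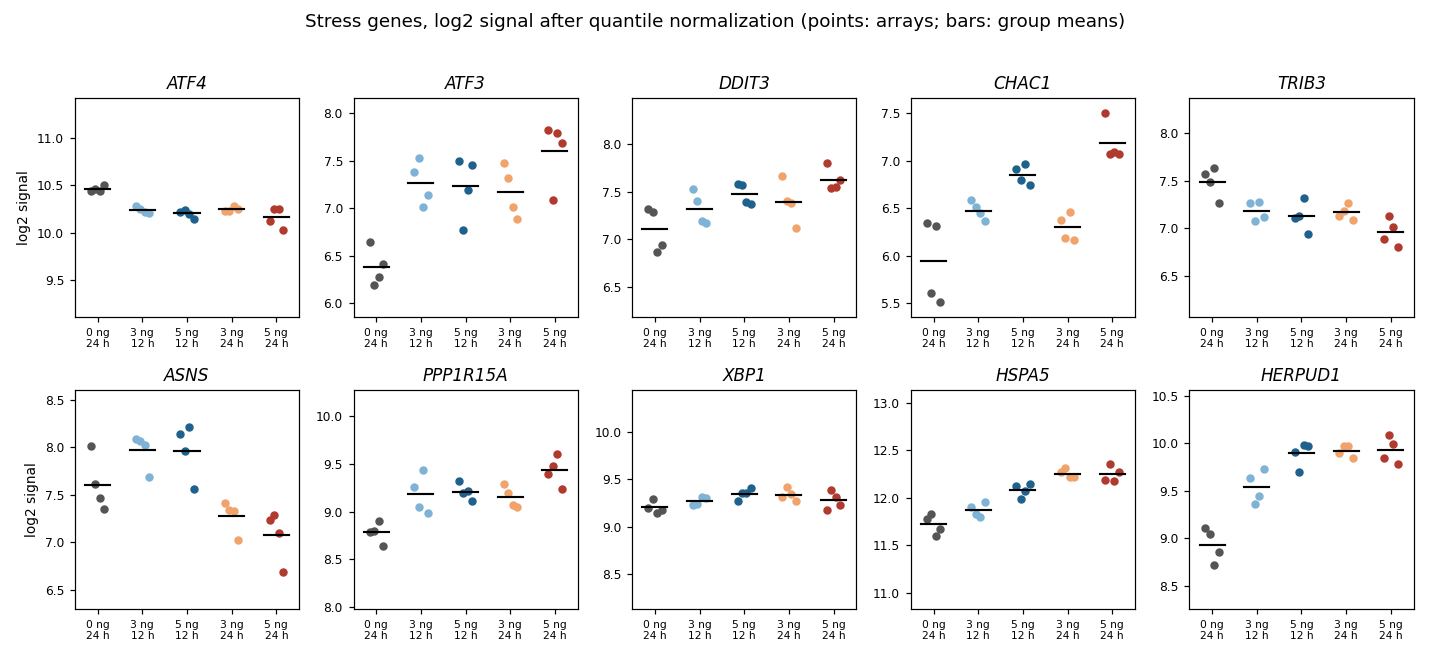
Log2 signal of the same 10 genes after quantile normalization between all arrays (vertical axis) in the 5 dose and time groups (horizontal axis); points are the 4 arrays of a group and bars are group means. The spread within groups is narrower for several genes, as for HSPA5 at 0 ng (11.60 to 11.83 against 11.55 to 12.17 as deposited), and HERPUD1 and HSPA5 at 24 h lie above their uninduced arrays at both doses.

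HERPUD1, an ER membrane protein of ER-associated degradation, rose at both doses. Its signals were 9.40, 9.19, 8.76 and 9.41 at 0 ng, 9.82, 9.87, 9.78 and 9.48 at 3 ng and 9.68, 10.07, 9.89 and 9.80 at 5 ng, all at 24 h, with no overlap of either induced group with 0 ng. The rise was 0.55 ± 0.17 at 3 ng (1.46-fold, adjusted p = 0.0238) and 0.67 ± 0.17 at 5 ng (1.59-fold, adjusted p = 0.00522). After quantile normalization it was 0.99 ± 0.10 at either dose (1.99-fold, adjusted p = 4.85e-07 and 1.95e-07 with limma). As deposited, the call at 3 ng was lost without uninduced replicate 3 (0.40, adjusted p = 0.0842) and without replicates 1, 2 or 3 of 3 ng at 24 h (0.52, 0.50 and 0.53, adjusted p from 0.0577 to 0.0614).

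HSPA5, which encodes BiP, the main chaperone of the ER lumen and an ATF6 target, depended on the scale. As deposited its arrays ran from 11.55 to 12.17 at 0 ng, from 11.91 to 12.23 at 3 ng and from 12.07 to 12.42 at 5 ng at 24 h, and the groups overlapped. Its differences were 0.20 ± 0.15 and 0.34 ± 0.15 and were not called (adjusted p = 0.403 and 0.0998). After quantile normalization every induced array at 24 h (12.18 to 12.36) lay above every uninduced one (11.60 to 11.83), with called differences of 0.53 ± 0.06 at both doses. With arrays centred on their medians the 5 ng difference was 0.61 and was called (adjusted p = 0.00546).

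XBP1, the factor that the sensor IRE1 activates by splicing its mRNA, was called at neither dose, as deposited or after quantile normalization; its window, like that of HSPA5, holds an ERSE. Its arrays ran from 9.17 to 9.73 at 0 ng, from 8.91 to 9.32 at 3 ng and from 9.01 to 9.31 at 5 ng at 24 h. The differences were -0.32 (95% interval -0.65 to 0.02) and -0.28 (-0.61 to 0.06) as deposited, and 0.13 (0.01 to 0.25) and 0.07 (-0.05 to 0.19) after quantile normalization. The sign of the XBP1 difference thus changed with the scaling.

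**Figure D3:**
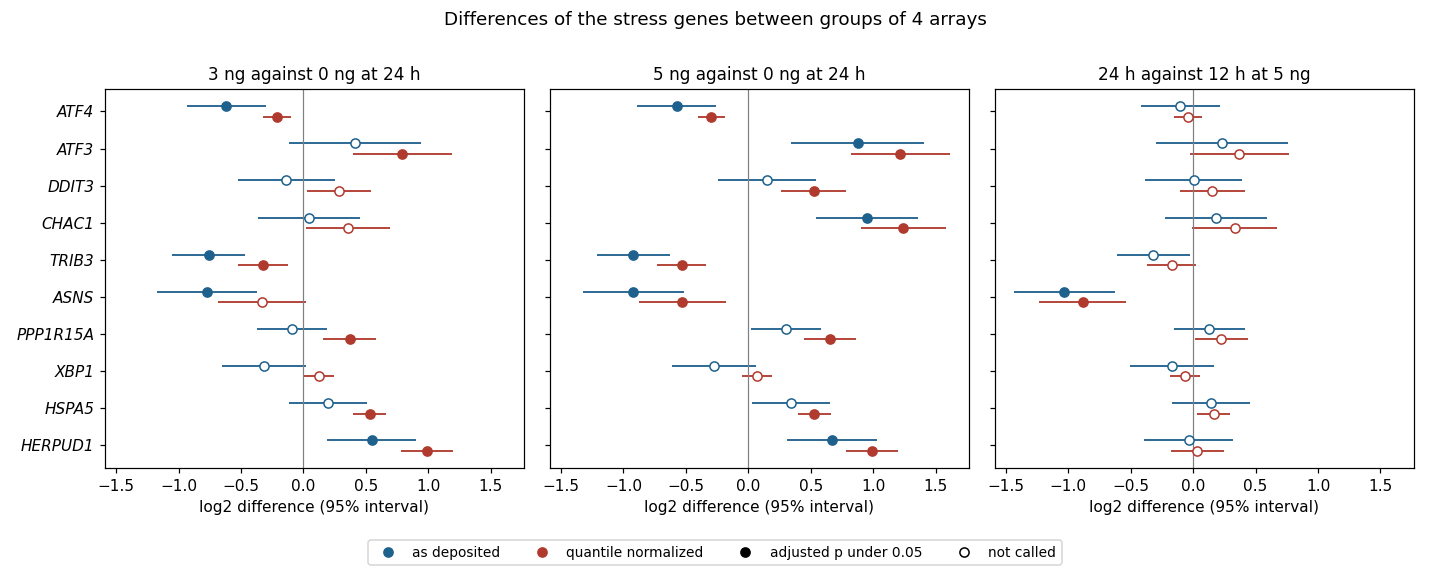
Log2 difference of the 10 genes (horizontal axis, with 95% intervals) in 3 panels, for both doses at 24 h against uninduced cells and for 5 ng between the times; blue is as deposited, red is after quantile normalization, and filled points have an adjusted p under 0.05. ATF4, TRIB3 and ASNS lie left of 0 and CHAC1, ATF3 and HERPUD1 right of 0 at 5 ng on both scales, and in the comparison of times ASNS is the called gene, at -1.03 as deposited.

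The arrays of both doses at 24 h were then compared directly. CHAC1 was the 1 gene of the 10 called, and it rose by 0.91 ± 0.20 (1.87-fold, adjusted p = 0.011 with limma), beside 1.79% of all genes called higher and 0.755% called lower. After quantile normalization CHAC1 rose by 0.89 ± 0.16 and again was the 1 called, beside 5.96% and 4.42% of all genes. The CHAC1 call as deposited was lost without replicate 4 of 3 ng (0.82, adjusted p = 0.062) and without replicate 1 of 5 ng (0.81, adjusted p = 0.0547). PPP1R15A had arrays that did not overlap between the doses as deposited, with a difference of 0.39 (95% interval 0.11 to 0.67) that was not called (adjusted p = 0.193). Its normalized arrays did overlap, from 9.05 to 9.29 at 3 ng and from 9.24 to 9.61 at 5 ng. For ATF4 the difference between the doses was 0.04 (-0.27 to 0.36), for HERPUD1 0.12 (-0.24 to 0.48), for TRIB3 -0.16 (-0.46 to 0.13) and for ASNS -0.15 (-0.55 to 0.26), all as deposited. On the normalized scale these differences were -0.083 for ATF4, 0.002 for HERPUD1, -0.21 for TRIB3 and -0.20 for ASNS, and none of the 4 was called (limma, adjusted p from 0.195 to 0.995).

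At 12 h the doses were not told apart for any of the 10 genes: limma called 0 of them, beside 0.0217% of all genes called higher and 0.0% called lower. An unadjusted p under 0.05 was reached by 0 of the 10 and by 1082 of all 18417 genes. After quantile normalization the count was again 0, beside 2.32% and 0.424% of all genes. On that scale 3 of the 10 (CHAC1, HERPUD1 and HSPA5) had an unadjusted p under 0.05, beside 2611 of all 18417 genes. CHAC1 arrays read 6.44, 6.99, 6.25 and 6.68 with 3 ng and 6.70, 6.80, 7.04 and 6.90 with 5 ng at 12 h. The CHAC1 difference between the doses was 0.27 (95% interval -0.14 to 0.68) at 12 h, against 0.91 (0.50 to 1.31) at 24 h. The test of that change, the interaction of dose and time, gave 0.64 ± 0.28 for CHAC1 with an adjusted p of 1.0 and an unadjusted p of 0.0328, so a change of the dose difference with time was not called. The interaction called 0 of the 10 genes and 0.0% of all genes in either direction, with 1 of the 10 and 391 of all genes at an unadjusted p under 0.05. After quantile normalization it called 0 of the 10, beside 0.00543% of all genes higher and 0.0652% lower. On that scale 3 of the 10 and 1115 of all genes had an unadjusted p under 0.05.

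Between 12 h and 24 h, ASNS was the gene that changed at both doses. Without an uninduced group at 12 h, the length of induction and the time in culture cannot be told apart in these comparisons. With 3 ng its arrays read 7.89, 8.48, 7.80 and 7.93 at 12 h and with 5 ng they read 7.94, 8.04, 8.26 and 7.67, against 6.68 to 7.28 over the 8 arrays of both doses at 24 h. ASNS fell from 12 h to 24 h by 0.93 ± 0.19 with 3 ng (1.91-fold, adjusted p = 0.00471) and by 1.03 ± 0.19 with 5 ng (2.05-fold, adjusted p = 0.00165). It was the 1 of the 10 called, beside 0.0706% of all genes higher and 4.36% lower with 3 ng, and 0.424% and 3.55% with 5 ng. After quantile normalization ASNS fell by 0.69 ± 0.17 and 0.88 ± 0.17, and the fall with 3 ng was not called with arrays centred on their medians (-0.63, adjusted p = 0.0906), where HSPA5 was called instead (0.57, adjusted p = 0.0404 with limma), beside 2.13% of all genes higher and 2.67% lower.

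On the normalized scale HERPUD1 and HSPA5 also rose from 12 h to 24 h with 3 ng, both by 0.38, to give 2 rises and 1 fall beside 9.92% and 6.06% of all genes. With 5 ng the normalized counts were 0 rises and 1 fall, beside 10.8% and 7.6%. HERPUD1 arrays with 5 ng read 9.73, 9.83, 10.00 and 10.03 as deposited at 12 h, and the difference between the times was -0.04 (95% interval -0.40 to 0.32). CHAC1 with 3 ng was lower at 24 h than at 12 h by a difference of -0.46 ± 0.20 that was not called (adjusted p = 0.229), and with 5 ng its difference was 0.18 ± 0.20 (adjusted p = 0.866).

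Set against 0 ng at 24 h, where dose and time cannot be told apart, cells given 5 ng for 12 h had CHAC1 higher by 0.77 ± 0.20 (adjusted p = 0.0113) and HERPUD1 higher by 0.71 ± 0.17 (adjusted p = 0.00803). TRIB3 was lower, with a difference of -0.60 ± 0.14 (adjusted p = 0.00647), and so was ATF4, with -0.47 ± 0.15 (adjusted p = 0.0414 with limma). These 2 rises and 2 falls stand beside 3.44% and 11.5% of all genes, and after quantile normalization there were 6 rises and 2 falls, beside 11.5% and 14.3%. The normalized values were 0.91 for CHAC1, 0.96 for HERPUD1, -0.36 for TRIB3 and -0.25 for ATF4, all called. ASNS, the gene that was lower at 24 h, had a difference of 0.11 (95% interval -0.29 to 0.52) here as deposited and 0.36 (0.01 to 0.71) after quantile normalization, and neither was called. The ATF4 call did not hold with arrays centred on their medians (-0.36) or with the mean of its 2 clusters (-0.34, adjusted p = 0.193). It was also lost when 1 of 13 arrays was left out: any array of 5 ng at 24 h, replicates 1, 2 or 3 of 3 ng at 24 h, replicates 1, 3 or 4 of 5 ng at 12 h, or replicates 1, 2 or 4 of 0 ng. The value without each of these ran from -0.50 to -0.36, with adjusted p from 0.0502 to 0.172.

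With 3 ng for 12 h against 0 ng at 24 h, limma called 0 of the 10 as deposited, beside 1.57% of all genes called higher and 1.24% called lower. An unadjusted p under 0.05 was reached by 5 of the 10 and by 3492 of all 18417 genes. The largest values were 0.77 ± 0.26 for ATF3 (7.20, 7.97, 6.80 and 7.40 in the 4 arrays), 0.50 ± 0.20 for CHAC1, -0.48 ± 0.14 for TRIB3 and -0.44 ± 0.15 for ATF4. Replicate 2 of this group, on the brightest array, was the highest of its group for both TRIB3 (7.52) and ATF4 (10.58). Without it TRIB3 (-0.56, adjusted p = 0.0139) and ATF4 (-0.56, adjusted p = 0.019) were called. After quantile normalization 4 of the 10 rose (ATF3, CHAC1, HERPUD1 and PPP1R15A) and 2 fell (ATF4 and TRIB3), beside 6.61% and 8.57% of all genes.

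The other genes of these pathways were read from 4 lists that hold none of the 10. On the ATF4 side 24 of 25 genes of amino acid synthesis and transport, one-carbon metabolism and partner factors were measured, and 3 rose and 16 fell with 5 ng against 0 ng at 24 h, with a list median of -0.70 beside -0.24 for all genes. Of all genes, 4.52% rose and 23.5% fell in that comparison. SLC7A11, the cystine importer that feeds glutathione synthesis, fell by 1.91 ± 0.21, PHGDH, the first enzyme of serine synthesis, fell by 1.75 ± 0.15 and STC2, a secreted glycoprotein, fell by 1.25 ± 0.20. NUPR1, a small stress-induced chromatin protein, rose by 1.25 ± 0.20, and SESN2 and DDIT4, inhibitors of mTORC1 signalling that p53 is also known to induce, were the other two rises, at 0.59 and 0.50. On the normalized scale the list had 5 rises and 14 falls with a median of -0.33 beside 0.07 for all genes, 20.6% of which rose and 17.2% fell. The normalized values were -1.48 for SLC7A11, -1.38 for PHGDH, -0.84 for STC2 and 1.52 for NUPR1, all called. With 3 ng it had 1 rise, NUPR1, and 15 falls as deposited, beside 1.5% and 23.0% of all genes, and 4 and 12 after quantile normalization, beside 15.4% and 12.5%.

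Like ASNS, several of these genes fell between 12 h and 24 h, where length of induction and time in culture again cannot be told apart. With 3 ng 6 of the 24 were called lower and 0 higher, beside 4.36% and 0.0706% of all genes. With 5 ng 4 were called lower and 0 higher, beside 3.55% and 0.424%. SLC7A11 fell by 1.36 ± 0.21 with 3 ng and by 1.47 ± 0.21 with 5 ng, and PHGDH by 1.31 ± 0.15 and 1.56 ± 0.15. On the normalized scale SLC7A11 fell by 1.13 and 1.31 and PHGDH by 1.10 and 1.43. The count with 3 ng was 3 without replicate 2 or 4 of 3 ng at 12 h, or without replicate 3 or 4 of 3 ng at 24 h, and it was 2 with arrays centred on their medians, beside 2.67% of all genes called lower. After quantile normalization there were 2 rises and 6 falls with 3 ng, beside 9.92% and 6.06% of all genes, and 2 rises and 9 falls with 5 ng, beside 10.8% and 7.6%. Between the doses at 24 h limma called 0 of the 24 as deposited, beside 1.79% of all genes called higher and 0.755% called lower. An unadjusted p under 0.05 was reached by 3 of the 24 and by 1626 of all 18417 genes. After quantile normalization there were 1 rise and 5 falls, beside 5.96% and 4.42% of all genes.

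**Figure D4:**
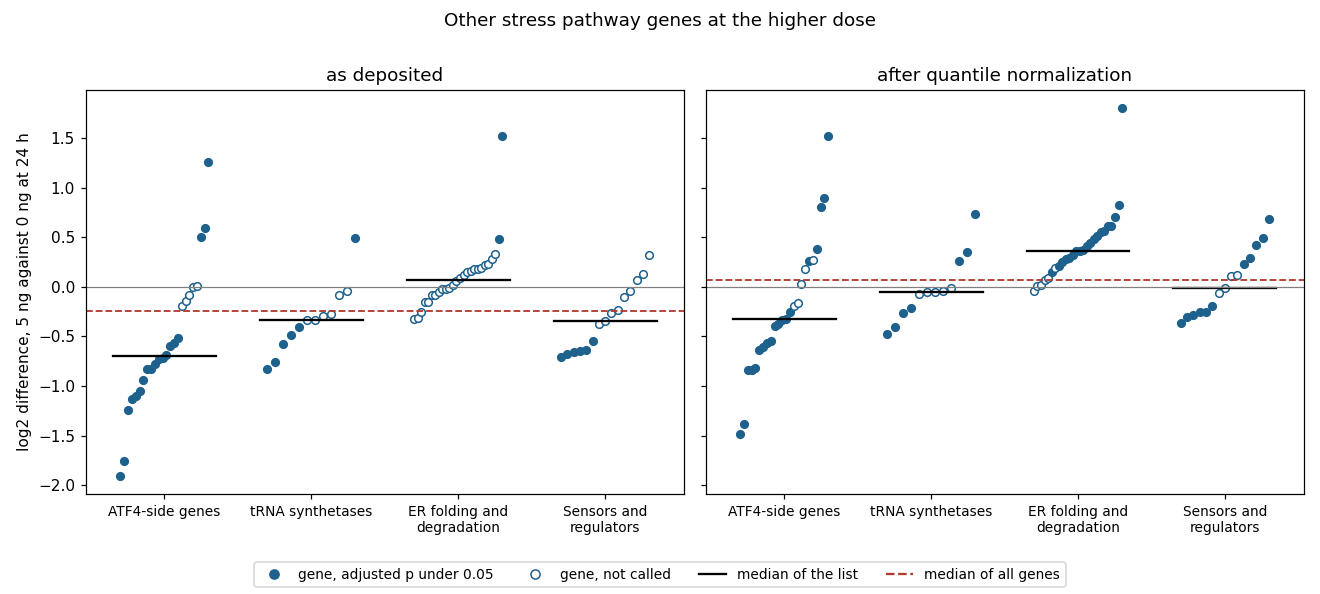
Log2 difference of 5 ng against 0 ng at 24 h (vertical axis) for each measured gene of the 4 other lists, as deposited (left) and after quantile normalization (right); filled points have an adjusted p under 0.05, black bars are list medians and the dashed red line is the median of all genes (-0.24 and 0.07). The median of the ATF4-side genes lies below the dashed line on both scales, at -0.70 and -0.33, and that of the ER genes above it, at 0.07 and 0.36.

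Of 12 cytosolic tRNA synthetases, which charge tRNAs and many of which ATF4 induces, 1 rose and 5 fell with 5 ng, with a median of -0.34 beside -0.24 for all genes, of which 4.52% rose and 23.5% fell. LARS1, the enzyme for leucine, fell by 0.83 ± 0.18, AARS1, for alanine, by 0.76 ± 0.16 and MARS1, for methionine, by 0.57 ± 0.15, while SARS1, for serine, rose by 0.49 ± 0.14. After quantile normalization there were 3 rises and 4 falls, beside 20.6% and 17.2% of all genes, and a median of -0.05. The normalized values were -0.47 for LARS1, -0.41 for AARS1, -0.26 for MARS1 and 0.74 for SARS1, all called. With 3 ng 6 fell and 0 rose as deposited, beside 23.0% and 1.5% of all genes. At that dose there were 2 rises and 1 fall after quantile normalization, beside 15.4% and 12.5%, and 1 fall with arrays centred on their medians, beside 12.8%. Between the doses at 24 h limma called 0 as deposited, beside 1.79% of all genes higher and 0.755% lower. An unadjusted p under 0.05 was reached by 1 of the 12 and by 1626 of all 18417 genes. After quantile normalization SARS1 rose, beside 5.96% of all genes called higher and 4.42% lower.

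The ER list of chaperones, folding enzymes, translocation and degradation genes had 26 of 27 members measured, and its count turned on the scale. With 5 ng 2 rose and 0 fell as deposited, beside 4.52% of all genes called higher and 23.5% called lower. With arrays centred on their medians 9 rose and 0 fell, beside 11.8% and 14.8%. After quantile normalization 20 rose and 0 fell, beside 20.6% and 17.2%. The share of all genes called higher thus went up across these settings too. The list median was 0.07 as deposited and 0.36 after quantile normalization, beside -0.24 and 0.07 for all genes. ERO1B, an oxidase that renews disulfide bonds in the ER, rose by 1.52 ± 0.17 and DNAJB9, a co-chaperone of BiP, by 0.48 ± 0.17, and on the normalized scale by 1.80 and 0.82. With 3 ng ERO1B rose by 0.76 ± 0.17 and DERL1 and ERO1A fell (-0.42 and -0.45) as deposited, beside 1.5% and 23.0% of all genes. After quantile normalization 21 of the list rose and 0 fell at 3 ng, beside 15.4% and 12.5% of all genes, with DERL1 at -0.0068 and ERO1A at -0.0053. ERO1B also rose between the doses at 24 h, by 0.76 ± 0.17 as deposited. It was the 1 call of the list, beside 1.79% of all genes called higher and 0.755% called lower. That call was lost without replicate 4 of 3 ng or without replicate 4 of 5 ng at 24 h. At 12 h the ERO1B difference between the doses was 0.61 ± 0.17 as deposited and was not called (limma, adjusted p = 0.470). After quantile normalization it was 0.72 ± 0.09 at 12 h and was called (limma, adjusted p = 0.000512). The interaction of dose and time for ERO1B, 0.15 ± 0.24 as deposited, was not called. The count of 2 at 5 ng was 1 when any of 8 arrays was left out, namely replicates 1 and 2 of 0 ng, replicates 1, 2 and 3 of 3 ng at 24 h and replicates 2, 3 and 4 of 5 ng at 24 h, and the count of 3 at 3 ng was 1 without replicate 1 or 4 of 0 ng, or without replicate 3 or 4 of 3 ng at 24 h.

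Of the sensors and regulators upstream, 15 of 16 were measured, and 6 fell and 0 rose with 5 ng, beside 23.5% and 4.52% of all genes. EIF2B3 and EIF2B5, subunits of the factor that recharges eIF2, fell by 0.70 ± 0.19 and 0.65 ± 0.19, EIF2S1, the eIF2 subunit that the stress kinases phosphorylate, by 0.68 ± 0.17, and MBTPS2, the protease that releases ATF6, by 0.66 ± 0.18. After quantile normalization there were 5 rises and 6 falls, beside 20.6% and 17.2% of all genes. The normalized values were -0.30 for EIF2B3, -0.26 for EIF2B5, -0.37 for EIF2S1 and -0.25 for MBTPS2, all called. With 3 ng there were 0 rises and 6 falls as deposited, beside 1.5% and 23.0% of all genes, and 5 and 2 after quantile normalization, beside 15.4% and 12.5%. As deposited the count of 6 was 2 without replicate 4 of 0 ng, 3 without replicate 4 of 3 ng at 24 h and 2 with arrays centred on their medians. Between the doses at 24 h limma called 0 as deposited, beside 1.79% of all genes higher and 0.755% lower. An unadjusted p under 0.05 was reached by 2 of the 15 and by 1626 of all 18417 genes. After quantile normalization there were 2 rises and 2 falls, beside 5.96% and 4.42% of all genes.

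Among themselves, the 10 genes did not vary as 1 block over the 20 arrays after quantile normalization. Pearson's r was 0.913 for HERPUD1 and HSPA5 and 0.830 for ATF4 and TRIB3, and it was -0.825 for ATF3 and ATF4 and -0.807 for ATF3 and TRIB3. ASNS had r between -0.48 and 0.43 with each of the others. These values describe arrays that share dose, time and normalization. Of all genes outside the 10, the closest to HSPA5 were HSP90B1 (r = 0.970), the ER chaperone also called GRP94, and DNAJB9 (0.956), followed by AOX1 (0.954). The closest to HERPUD1 were KDM5B (0.977), SLC33A1 (0.966) and DNAJB9 (0.951). For ATF4 they were EIF3B (0.957), PLEK2 (0.942) and WDR4 (0.928), for CHAC1 MC1R (0.945), EDN2 (0.943) and EDAR (0.930), and for ASNS CD109 (0.924), NCR3LG1 (0.912) and JAG1 (0.908).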

How the data were processed

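The authors deposited log2 signals, 1 per transcript cluster and array, for 33297 clusters on 20 arrays. The submitters' processing notes name GCOS, GCRMA, Affymetrix Power Tools and limma, without versions or roles. The genome build and the step that scaled the arrays are not given in the sources used here. Genes were named through the platform annotation from clusters with 1 symbol (19460; 1754 had several and 12083 were not listed), and the brightest cluster stood for a gene, which left 18417 genes with no filter. Array pairs correlated at 0.965 to 0.986 and 0 pairs were identical.

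With limma 3.58.1 (R 4.3.3) and eBayes, 1 linear model of 5 group means took in the 20 arrays and left 15 residual degrees of freedom. The 9 comparisons were adjusted over all genes with Benjamini-Hochberg, and genes with an adjusted p under 0.05 were called. Errors are standard errors of the model (n = 4 arrays in each group), and intervals are 95% intervals. The number of arrays limits the precision. Tested on simulated data for 5 ng against 0 ng at 24 h, with 200 of 18417 genes changed 2-fold, the fit recovered 74% of them and called 5 unchanged genes. The simulated arrays had independent errors and no difference in brightness. These numbers therefore do not measure false calls in the deposited values, whose array medians differed.

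The alternatives were quantile normalization, centring on array medians, leaving out the dimmest 30% of genes (12891 left, 0 of the 10 removed), the mean of a gene's clusters, a replicate block, trend and robust options, and each array left out in turn. Quantile normalization together with the replicate block was added after seeing the data. All 10 genes are named, with up to 4 called genes of each other list that changed most with 5 ng against 0 ng and against 3 ng at 24 h, CDKN1A and MDM2 as checks, and the 3 genes closest to a member by Pearson's r. SESN2, DDIT4, DERL1, ERO1A, CD14 and the values of SLC7A11 and PHGDH between the times were chosen after their values were seen. So were the values of ERO1B between the doses at 12 h and in the interaction. The 10 genes and the lists were chosen with earlier results of these data known. In the lists GPT2, PDIA3 and ATF6B are not analysed here.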

Additional observations from a re-analysis of the deposited data

Results flagged for a closer look

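ATF3 with 5 ng at 24 h had 1 array far below the other 3 of its group. Replicate 2 read 6.88 as deposited, the nearest other array read 7.61 and the highest 7.68, so the gap was 0.912 of the group's range, above Dixon's 95% critical value for 4 samples. After quantile normalization the same array read 7.09, against 7.68 to 7.82 in the others. This array also had the lowest median of all 20 (4.54). Without it the ATF3 difference from 0 ng was 1.07 on the log2 scale as deposited, the highest value over the 20 arrays left out in turn, against 0.88 with it. It was the 1 flag among the 50 groups examined (10 genes in 5 groups), and chance flags about 1 group in 20.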

How the results depend on the processing

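The called values of the 10 genes kept their direction under every alternative run, and their calls were lost as follows. Of 17 called values (of 90 over the 9 comparisons), centring on array medians lost 5, quantile normalization 1 and the mean of a gene's clusters 1; the dim filter, trend and robust options, the replicate block and quantile normalization with the block lost 0. Leaving out 1 array at a time lost 19 calls and kept 321, the losses being those of ATF4, HERPUD1 and CHAC1 given in the text. The cause of these changes was not tested. Detection calls were not used here, and the filter on dim genes removed 0 of the 10.

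Replicate numbers were checked as pairs: 13 of 40 same-number pairs of arrays had correlated deviations over 0.1 (median r 0.058), against 20 of 120 different-number pairs (median r -0.024). After quantile normalization the counts were 12 of 40 (median r 0.06) and 4 of 120 (median r -0.013). The numbers were not taken to pair the samples, since not every pair was over 0.1. As a hint from the data, and not from the labels, 10 of 20 arrays as deposited and 18 of 20 after quantile normalization correlated best with an array of their own number. The replicate block alone changed 0 of 90 calls, and the members called stayed at 4, 6, 1, 0, 1, 1, 0, 4 and 0 in the 9 comparisons. With quantile normalization the block raised the 10 genes' count for 3 ng at 24 h from 6 to 9, adding DDIT3 (0.29), CHAC1 (0.36) and ASNS (-0.33).

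Calls over all 18417 genes also moved. For 3 ng versus 0 ng at 24 h they were 4504 as deposited, 5142 with quantile normalization and 5713 with the block added. In that order they were 5166, 6958 and 7422 for 5 ng versus 0 ng at 24 h. They were 468, 1911 and 2489 for 5 ng versus 3 ng at 24 h. For 12 h versus 0 ng they were 519, 2797 and 3593 with 3 ng, and 2750, 4742 and 5336 with 5 ng. Between the times they were 816, 2943 and 3685 with 3 ng, and 731, 3386 and 4079 with 5 ng. Counts of called genes moved by over 1.5 times as follows. With quantile normalization with replicate block, the 10 genes had 9 for 3 ng versus 0 ng at 24 h, 3 for 5 ng versus 3 ng at 24 h, 3 for 24 h versus 12 h at 3 ng, 2 for 24 h versus 12 h at 5 ng, 7 for 3 ng at 12 h versus 0 ng and 10 for 5 ng at 12 h versus 0 ng. The ATF4-side list had 10 for 5 ng versus 3 ng at 24 h and 11 for 24 h versus 12 h at 5 ng. The tRNA synthetases had 3 for 5 ng versus 3 ng at 24 h. The ER list had 21 for 3 ng versus 0 ng at 24 h, 20 for 5 ng versus 0 ng at 24 h and 2 for 5 ng versus 3 ng at 24 h. The sensors had 11 for 5 ng versus 0 ng at 24 h and 4 for 5 ng versus 3 ng at 24 h. With quantile normalization, the 10 genes had 3 for 24 h versus 12 h at 3 ng, 6 for 3 ng at 12 h versus 0 ng and 8 for 5 ng at 12 h versus 0 ng. The ATF4-side list had 6 for 5 ng versus 3 ng at 24 h and 11 for 24 h versus 12 h at 5 ng. The tRNA synthetases had 3 for 3 ng versus 0 ng at 24 h and 1 for 5 ng versus 3 ng at 24 h. The ER list had 21 for 3 ng versus 0 ng at 24 h, 20 for 5 ng versus 0 ng at 24 h and 2 for 5 ng versus 3 ng at 24 h. The sensors had 11 for 5 ng versus 0 ng at 24 h and 4 for 5 ng versus 3 ng at 24 h. With centring on array medians, the 10 genes had 3 for 3 ng at 12 h versus 0 ng. The tRNA synthetases had 1 for 3 ng versus 0 ng at 24 h and 3 for 5 ng versus 0 ng at 24 h. The ER list had 9 for 5 ng versus 0 ng at 24 h. The sensors had 2 for 3 ng versus 0 ng at 24 h. The ATF4-side list had 2 for 24 h versus 12 h at 3 ng. With leaving out the dimmest 30% of genes, the 10 genes had 2 for 3 ng at 12 h versus 0 ng. With trend and robust options, the 10 genes had 3 for 3 ng at 12 h versus 0 ng. The ATF4-side list had 7 for 24 h versus 12 h at 5 ng.

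With 1 array left out, the counts that moved by over 1.5 times ran over these ranges: the 10 genes 0 to 1 for 5 ng versus 3 ng at 24 h, the 10 genes 0 to 2 for 3 ng at 12 h versus 0 ng, the ER list 1 to 3 for 3 ng versus 0 ng at 24 h, the ER list 1 to 2 for 5 ng versus 0 ng at 24 h, the ER list 0 to 1 for 5 ng versus 3 ng at 24 h, the sensors 2 to 9 for 3 ng versus 0 ng at 24 h and the ATF4-side list 3 to 6 for 24 h versus 12 h at 3 ng.

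Every difference that changed sign was among those not called as deposited. These were the values after centring on array medians. In 5 ng versus 3 ng at 12 h, ATF3 was 0.072, ATF4 was 0.17, TRIB3 was 0.07 and ASNS was 0.14. In 24 h versus 12 h at 3 ng, ATF4 was 0.13, DDIT3 was 0.12, TRIB3 was 0.025, XBP1 was 0.16 and PPP1R15A was 0.05. In 24 h versus 12 h at 5 ng, ATF4 was 0.052 and HERPUD1 was 0.12. In the interaction, ATF4 was -0.077. In 3 ng versus 0 ng at 24 h, DDIT3 was 0.09 and PPP1R15A was 0.14. In 3 ng at 12 h versus 0 ng, DDIT3 was -0.025. In 5 ng at 12 h versus 0 ng, XBP1 was 0.0075. These were the values after quantile normalization (with or without the replicate block). In 5 ng versus 3 ng at 24 h, ATF4 was -0.083, HSPA5 was -0.0052 and XBP1 was -0.056. In 24 h versus 12 h at 3 ng, ATF4 was 0.0064, DDIT3 was 0.068 and XBP1 was 0.063. In the interaction, ATF4 was -0.048. In 3 ng versus 0 ng at 24 h, DDIT3 was 0.29, XBP1 was 0.13 and PPP1R15A was 0.37. In 24 h versus 12 h at 5 ng, HERPUD1 was 0.033. In 3 ng at 12 h versus 0 ng, HSPA5 was 0.15 and XBP1 was 0.064. In 5 ng versus 0 ng at 24 h, XBP1 was 0.071. In 5 ng at 12 h versus 0 ng, XBP1 was 0.14. These were the ranges with 1 array left out. 5 ng versus 3 ng at 12 h gave ATF3 from -0.30 to 0.089, ATF4 from -0.12 to 0.086, DDIT3 from -0.049 to 0.23, ASNS from -0.14 to 0.10, XBP1 from -0.032 to 0.17 and PPP1R15A from -0.05 to 0.08. 5 ng versus 3 ng at 24 h gave ATF4 from -0.016 to 0.082 and XBP1 from -0.041 to 0.096. The interaction gave ATF4 from -0.043 to 0.16, TRIB3 from -0.13 to 0.048 and XBP1 from -0.13 to 0.069. 3 ng versus 0 ng at 24 h gave DDIT3 from -0.28 to 0.0075, CHAC1 from -0.12 to 0.20 and PPP1R15A from -0.17 to 0.0025. 24 h versus 12 h at 5 ng gave DDIT3 from -0.037 to 0.049 and HERPUD1 from -0.11 to 0.022. 3 ng at 12 h versus 0 ng gave DDIT3 from -0.089 to 0.19 and HSPA5 from -0.18 to 0.026.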
